A study of Mus musculus with 2 samples.

Results

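The data concern p53 and a set of genes tied to it, 10 genes in all of the 43346 Ensembl genes in each gene table. They were taken by name through GENCODE mouse annotation, and all 10 had an entry in both tables: Trp53 itself, its inhibitors Mdm2 and Mdm4, and the p53 targets Ccng1, Phlda3, Sesn2, Zmat3, Trp53inp1, Aen and Eda2r. The RNA was total RNA of CFU-Ery, primary erythroid progenitor cells that divide to give red blood cells, from adult male mice of the strain C57BL/6J (5 to 6 weeks old); the linked protocols name bone marrow as the source and describe pools of 100 cells. There was 1 group with 2 libraries, biological replicates 1 and 2, for which 1 ng of RNA and added control transcripts were used. Treatment, mutant alleles and a second group are not named in the labels. The biosamples differ but the donor entry is shared, so the spread between libraries may be technical, and an exact sign-flip test on 2 libraries cannot go below p = 0.5. Levels are therefore described by the value in each library and by mean ± SD, with no test between conditions.

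The p53 protein is a transcription factor that is held at low levels in undamaged cells. Mdm2, a ubiquitin ligase, binds p53 and marks it for degradation, and its relative Mdm4 binds p53 and blocks its activity. Mdm2 is also a p53 target gene, which closes a negative feedback loop. When DNA damage or impaired ribosome assembly releases p53 from these inhibitors, it switches on genes of cell cycle arrest, DNA repair, apoptosis and metabolic adjustment. Red cell precursors are known for their sensitivity to this pathway: the anaemia caused by loss of a ribosomal protein depends in part on p53, and mice need Mdm2 and Mdm4 to make red cells.

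The promoters of 4 members are shown because they hold the p53 decamer, the 10-base element bound by a pair of p53 subunits, 2 of which side by side make a full response element. RefSeq promoter windows (GRCm38.p6, 250 bases before to 50 after a gene's start) were at hand for 8 of the 10 members, in 10 windows; Zmat3 and Trp53inp1 had none. The decamer was searched by its consensus, which reads the same on both strands. It stood in 5 windows of 4 members, Trp53, Mdm2, Ccng1 and Aen, and in 8.36% of all 32851 promoter windows. A complete side-by-side pair stood in no member window and in 0.00913% of all windows. The paired 4-base cores of a full element, with 6 bases between them, stood in the windows of Trp53 and Aen, where they overlap the decamer, and in 7.22% of all windows. Each line reads 5′ to 3′ along the gene's own strand, with the decamer in capitals; it begins at position -75 from the start in Trp53, -186 in Mdm2, -185 in Ccng1 and -121 in Aen. The regions are chr11:69580109-69580408 (plus strand), chr10:117710709-117711008 (minus), chr11:40755237-40755536 (minus) and chr7:78895808-78896107 (plus). A match is a description of these letters and not a measured binding site.
Trp53: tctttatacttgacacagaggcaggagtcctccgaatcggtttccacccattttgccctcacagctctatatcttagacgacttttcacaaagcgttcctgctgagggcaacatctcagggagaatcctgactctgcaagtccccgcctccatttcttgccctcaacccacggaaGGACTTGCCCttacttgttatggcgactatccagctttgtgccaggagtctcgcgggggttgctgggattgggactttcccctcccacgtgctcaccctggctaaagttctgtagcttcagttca
Mdm2: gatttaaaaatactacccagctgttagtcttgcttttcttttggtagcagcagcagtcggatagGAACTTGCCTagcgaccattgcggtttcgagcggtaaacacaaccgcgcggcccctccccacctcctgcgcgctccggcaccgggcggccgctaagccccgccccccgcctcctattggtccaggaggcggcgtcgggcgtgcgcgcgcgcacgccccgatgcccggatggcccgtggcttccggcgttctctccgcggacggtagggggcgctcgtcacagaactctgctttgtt
Ccng1: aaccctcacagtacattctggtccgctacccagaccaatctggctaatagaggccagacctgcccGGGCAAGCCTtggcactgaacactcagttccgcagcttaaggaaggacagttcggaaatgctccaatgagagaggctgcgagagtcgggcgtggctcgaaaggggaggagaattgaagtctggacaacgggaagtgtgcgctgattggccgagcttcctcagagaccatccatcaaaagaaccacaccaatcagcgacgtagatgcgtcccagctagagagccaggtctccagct
Aen: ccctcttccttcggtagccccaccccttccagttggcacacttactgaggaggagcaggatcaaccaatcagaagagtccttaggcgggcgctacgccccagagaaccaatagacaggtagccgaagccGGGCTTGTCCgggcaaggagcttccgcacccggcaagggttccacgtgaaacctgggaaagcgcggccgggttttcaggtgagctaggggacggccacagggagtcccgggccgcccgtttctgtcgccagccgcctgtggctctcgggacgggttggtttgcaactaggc

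The libraries held 143491647 and 110634458 expected counts, of which mitochondrial rRNA took 81.2% and 79.0% and nuclear protein-coding genes 3.29% and 3.70%. The 10 members together had 3655 and 2826 counts, which is 0.0775% and 0.0690% of the nuclear protein-coding counts. Because the deposited TPM, a length-scaled share of all transcripts, is spread over every entry, 1 TPM equals 43.1 and 37.0 TPM when nuclear protein-coding genes alone are rescaled to sum to 1000000. Any level not called rescaled is the deposited TPM. All 8 erythroid marker genes reached 1 TPM, with a summed level of 2605 and 2992 TPM. So did all 8 granulocyte and monocyte markers (539 and 734 TPM), 4 of 5 macrophage markers (9.97 and 13.1), 3 of 4 B lymphoid markers (14.96 and 17.12) and 3 of 3 eosinophil, basophil and mast cell markers (8.28 and 8.97). Of 3 T and NK lymphoid markers 1 reached 1 TPM (sums of 2.48 and 2.75), and no megakaryocyte marker (1.93 and 2.51) did. Nor did Cd34, Gata2 or Kit, listed here as markers of stem cells and multipotent progenitors (sums of 0.82 and 0.84). Kit alone stood at 0.43 and 0.36 TPM. Whether erythroid progenitors also express these genes was not tested, so their low levels are not read as absence of stem cells. No marker of any list was at 0 counts in both libraries. Each member's level is thus the sum over whatever cells gave RNA, and the part of non-erythroid cells in it was not tested. In bulk RNA, fewer cells that express a gene and less RNA per cell cannot be told apart.

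Trp53 and its inhibitors were the most abundant members, and the levels spread from 2.80 TPM to 0 across the 10. Mdm4, Mdm2 and Trp53 reached 1 TPM in both libraries, 3 of 10, where 12.6% of the 21461 nuclear protein-coding genes did. On the rescaled scale 8 of 10 reached 1, where 44.6% of those genes did. The median member stood at 0.570 and 0.605 TPM, and the median nuclear protein-coding gene at 0.01 and 0.02. Counts were assigned cleanly: all 20 gene counts were whole (within 0.005), and the deposited posterior standard deviation of the count was 0 for 9 of 10 members and at most 0.13 counts for Mdm4.

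Mdm4 (ENSMUSG00000054387.9, chromosome 1, 132959484 to 133030561, GRCm38) stood at 2.80 TPM in replicate 1 and 2.55 in replicate 2, from 1242 and 1069 counts (2.67 ± 0.177 TPM, SD, n = 2). Mdm2 (ENSMUSG00000020184.10, chromosome 10, 117688875 to 117710758) stood at 2.02 and 2.28 TPM, from 695 and 570 counts (2.15 ± 0.184). Both inhibitor genes varied little, and their values did not overlap. Trp53 (ENSMUSG00000059552.9, chromosome 11, 69580359 to 69591873) stood at 1.80 and 1.06 TPM, from 403 and 183 counts (1.43 ± 0.523). It was lower than either inhibitor in both libraries, and it was the member above 0.1 TPM with the widest relative spread. Its 95% counting intervals, 1.63 to 1.99 and 0.908 to 1.22 TPM, did not meet. Counting intervals, here and for the other genes, leave out all error but that of counting, and PCR copies add to that error.

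Among the targets, Trp53inp1 and Ccng1 were the highest. Trp53inp1 (ENSMUSG00000028211.7, chromosome 4, 11156431 to 11174379), which encodes a stress-induced nuclear protein with a part in autophagy, stood at 0.96 and 1.17 TPM from 669 and 518 counts. Ccng1 (ENSMUSG00000020326.7, chromosome 11, 40748552 to 40755311), the gene of cyclin G1, stood at 0.86 and 0.90 TPM from 359 and 314 counts. Both lay near 1 TPM in both libraries. Sesn2 (ENSMUSG00000028893.8, chromosome 4, 132492032 to 132510501), a sestrin that restrains the growth kinase mTORC1 under stress, stood at 0.28 and 0.31 TPM from 125 and 108 counts. Its libraries lay close together, at a level 9.07-fold under Mdm4.

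The remaining 4 targets were the lowest members. Aen (ENSMUSG00000030609.14, chromosome 7, 78895854 to 78911209), an apoptosis-enhancing nuclease, stood at 0.15 and 0.21 TPM from 67 and 33 counts. Zmat3 (ENSMUSG00000027663.8, chromosome 3, 32334792 to 32366014), a zinc finger RNA-binding protein, stood at 0.09 and 0.04 TPM from 85 and 31 counts. For both genes, replicate 1 held more counts. Eda2r (ENSMUSG00000034457.6, chromosome X, 97333840 to 97377216), a receptor of the TNF receptor family for ectodysplasin A2, had 10 counts in replicate 1 (0.02 TPM) and 0 in replicate 2, where a floor of 3 counts allows up to 0.0136 TPM. Phlda3 (ENSMUSG00000041801.5, chromosome 1, 135766119 to 135769136), which encodes a repressor of the kinase Akt, had 0 counts in both libraries, which allows up to 0.0262 and 0.0336 TPM. Mdm4 stood 107-fold and 75.8-fold above Phlda3 set at that floor of 3 counts per library. The intervals reach past the floor, so these folds are not lower bounds. On the rescaled scale the Phlda3 floor is 1.13 and 1.24 TPM, so at the length used a level of 1 rescaled TPM lies under it. That effective length is 866 and 863 bases, while the coding transcript of Phlda3 has 1435 bases and the other 569. With 0 counts the length is not set by reads, and the floors and folds change with it. For Eda2r the effective length was 2140 bases in replicate 2 and 4616 in replicate 1.

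Ordered by mean TPM, the members ran Mdm4, Mdm2, Trp53, Trp53inp1, Ccng1, Sesn2, Aen, Zmat3, Eda2r and Phlda3. Neighbours were called apart where both libraries of the higher gene exceeded both of the lower, which is a rule on spread and not a test. By it 7 of the 9 neighbouring pairs stood apart. Trp53 and Trp53inp1 overlapped, since the lower Trp53 value of 1.06 TPM lay under the higher Trp53inp1 value of 1.17. Eda2r and Phlda3 overlapped at 0. On protein-coding transcripts alone, 4 of the 9 pairs stood apart. No gene of like pattern is named, because 2 libraries of 1 group give no pattern across conditions.

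**Figure D1:**
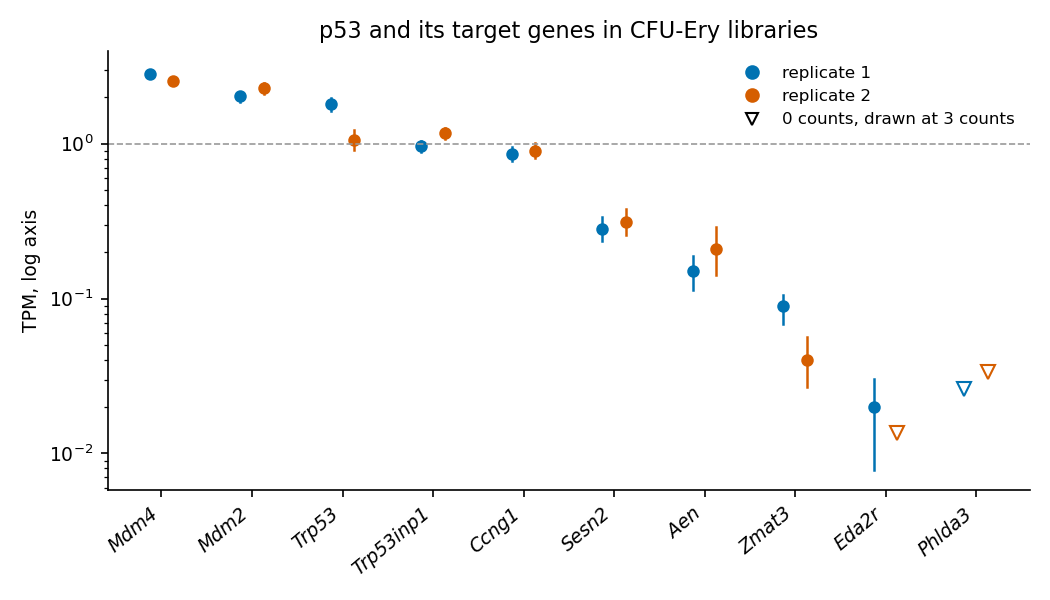
Level of each member in TPM (log axis) in replicate 1 (blue) and replicate 2 (orange), with vertical lines for 95% Poisson counting intervals, open triangles for 0 counts drawn at the floor of 3 counts, and a dashed line at 1 TPM. Mdm4, Mdm2 and Trp53 lie above the line in both libraries, and Phlda3 has no counts in either.

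Both inhibitors exceeded Trp53 per length, and by how much depended on the library. Mdm2 stood 1.12-fold above Trp53 in replicate 1 and 2.15-fold in replicate 2, a log2 ratio of TPM of 0.17 (95% counting interval -0.02 to 0.34) and 1.10 (0.87 to 1.36). Mdm4 stood 1.56-fold and 2.41-fold above Trp53, a log2 ratio of 0.64 (0.47 to 0.80) and 1.27 (1.05 to 1.51). The intervals of the libraries do not meet in either ratio. Mdm2 to Mdm4 had a log2 ratio of -0.47 (-0.61 to -0.34) and -0.16 (-0.31 to -0.02), with Mdm4 higher in both libraries. Averaged over the libraries the log2 ratios were 0.64 ± 0.66 for Mdm2 to Trp53, 0.95 ± 0.44 for Mdm4 to Trp53 and -0.32 ± 0.22 for Mdm2 to Mdm4 (SD, n = 2). Counting only transcripts annotated as protein-coding, Mdm2 to Trp53 was -1.49 ± 1.18 and Mdm4 to Trp53 0.11 ± 0.83. Mdm2 was then below Trp53 in both libraries, at 0.33 against 1.65 TPM and 0.65 against 1.02. Mdm4 was below Trp53 in replicate 1, at 1.18 TPM, and above it in replicate 2, at 1.65.

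The reversal for Mdm2 follows from the make-up of Mdm2, most of whose TPM lay outside its protein-coding transcripts. Mdm2 has 9 transcripts in the deposited tables, and the most abundant in both libraries was Mdm2-209, which GENCODE annotates as a target of nonsense-mediated decay, the process that destroys mRNAs with an early stop codon. Mdm2-209 carried 73.5% and 52.6% of Mdm2 TPM (516 and 325 estimated counts). The 2 protein-coding transcripts, Mdm2-201 and Mdm2-202, carried 16.0% and 28.6% together, or 22.3% ± 8.88 (SD, n = 2), and the 3 retained-intron transcripts 6.25% and 12.8%. Mdm2-209 led in both libraries although its share differed.

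Mdm2-209 has 10 exons against the 12 of Mdm2-201, and it lacks exon 8, whose 97 bases are not a multiple of 3. Its reading frame ends after 162 codons, against 489 in Mdm2-201. The sequences show the change, from the last 20 bases of exon 7 onward. In the Mdm2-201 line (chr10:117695049-117696400, minus strand, GRCm38) the capitals are exon 8, followed by the first 20 bases of exon 9. In the Mdm2-209 line (chr10:117694979-117696400, minus strand) exon 7 runs straight into exon 9, and the capitals are the stop codon reached after 87 bases of it.
Mdm2-201: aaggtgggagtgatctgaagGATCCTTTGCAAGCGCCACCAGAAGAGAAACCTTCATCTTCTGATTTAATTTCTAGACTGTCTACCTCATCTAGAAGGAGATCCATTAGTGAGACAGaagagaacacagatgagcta
Mdm2-209: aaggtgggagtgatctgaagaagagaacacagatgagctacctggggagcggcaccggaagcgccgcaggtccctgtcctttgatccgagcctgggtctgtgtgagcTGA

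Mdm2-209 also differs at its 5′ end. It starts inside exon 2, 736 bases downstream of the start of exon 1. In mouse Mdm2 a constitutive promoter lies before exon 1 and a p53-responsive promoter within intron 1, as background; the promoter window printed above covers the first of these only. Transcripts that start in exon 2 or intron 1 held 77.7% and 56.2% of Mdm2 TPM, and those that start in exon 1 held 22.3% and 43.8%. None of the 3 transcripts of the first kind is annotated as protein-coding, while both protein-coding transcripts start in exon 1. Skipping of exon 8 and a start in exon 2 therefore cannot be told apart in these tables, since no protein-coding transcript in them starts in exon 2 and keeps exon 8. Read alignments over exon 8 were not used here, and the lengths of Mdm2-201 and Mdm2-202 in the tables are 3086 and 3132 bases, against 3099 and 3145 in the annotation used for exons.

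**Figure D2:**
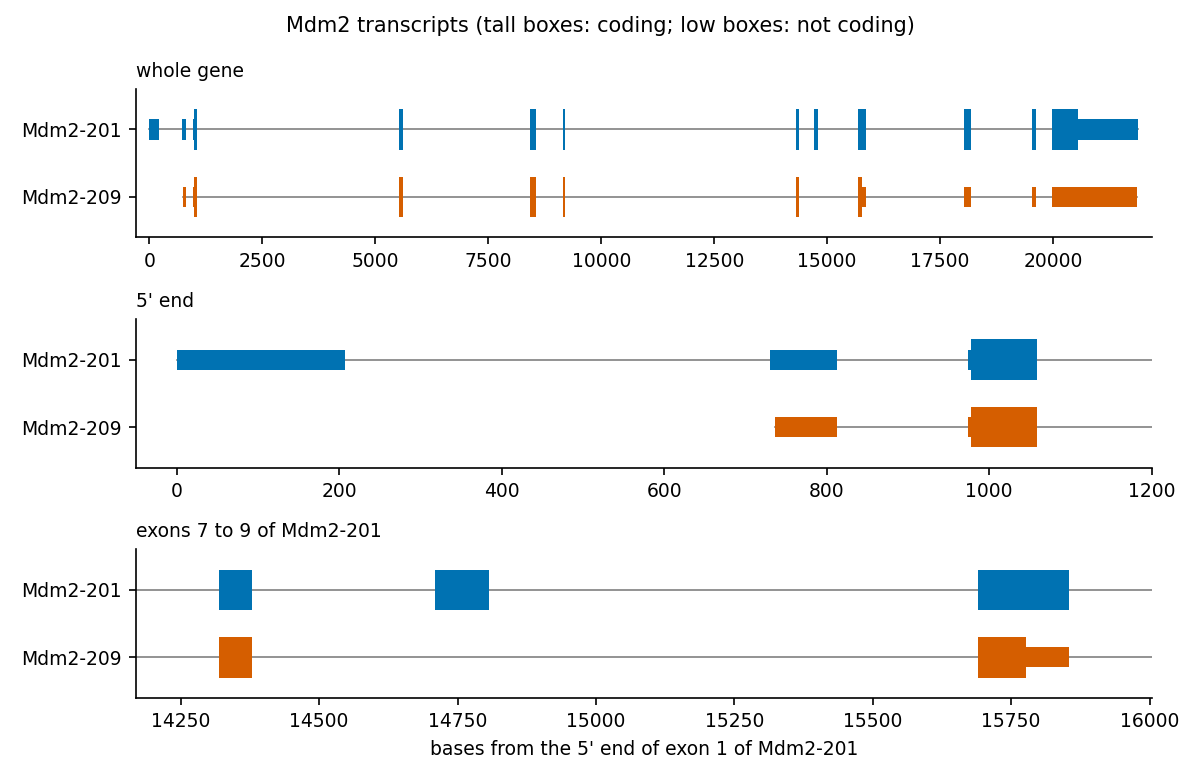
Exons of Mdm2-201 (blue) and Mdm2-209 (orange), drawn to scale in bases from the 5′ end of exon 1, over the whole gene, its 5′ end and exons 7 to 9; tall boxes are coding and low boxes are not. Mdm2-209 starts in exon 2, lacks exon 8 and stops coding within the next exon.

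Mdm4 was assigned mainly to protein-coding transcripts by counts and much less so by TPM. Whether the molecules were full-length was not tested. Of 14 Mdm4 transcripts, the protein-coding Mdm4-210, 7105 bases long, held 1091 of 1242 counts in replicate 1 and 981 of 1069 in replicate 2. It led in both libraries, at 42.3% and 53.4% of Mdm4 TPM. The 5 retained-intron transcripts, which are short and so weigh more per read, held 11.5% and 6.05% of the counts but 56.6% and 33.1% of the TPM. All protein-coding transcripts together held 53.6% ± 16.0 of the TPM (SD, n = 2) and 90.4% ± 3.58 of the counts. The Mdm4 level in TPM thus rests for a large part on 143 and 64.7 retained-intron counts.

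Nearly all Trp53 RNA was assigned to protein-coding transcripts, at 91.5% and 97.1% of its TPM. Of 6 transcripts, Trp53-203 led in replicate 1 with 71.5% and had 0 counts in replicate 2, where Trp53-201 led with 94.8%. These 2 transcripts have the same sequence but for 1 base: Trp53-203 equals Trp53-201 without its last base. Only a read over that base can tell them apart, so their shares are given together, as 81.9% and 94.8% (319 and 169 estimated counts). Mouse Trp53 also makes an alternatively spliced form whose last exon, exon 11, starts 96 bases earlier, so that the protein has another C-terminus. The last exon then holds 52 coding bases in Trp53-202, against 79 in Trp53-203. The transcripts with the earlier start, Trp53-202 and Trp53-206, held 9.60% of Trp53 TPM in replicate 1 and 2.36% in replicate 2. Estimated counts of Trp53-202 were 38.5 and 4.34, and Trp53-206 had 0. Both C-termini are shown from the last 20 bases of exon 10, on the plus strand of GRCm38, with the coding part of exon 11 and its stop codon in capitals: Trp53-203 at chr11:69590743-69591431 and Trp53-202 at chr11:69590743-69591308.
Trp53-203: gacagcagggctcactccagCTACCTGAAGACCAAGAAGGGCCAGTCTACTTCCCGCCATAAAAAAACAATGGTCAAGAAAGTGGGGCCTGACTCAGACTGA
Trp53-202: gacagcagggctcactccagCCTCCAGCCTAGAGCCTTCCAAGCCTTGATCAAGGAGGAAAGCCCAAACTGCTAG

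Trp53inp1 gave opposite splits in the libraries. In replicate 1 all 669 counts went to the protein-coding Trp53inp1-201. In replicate 2 that transcript held 163 of 518 counts, or 25.8% of TPM, and 306 counts went to the processed transcript Trp53inp1-202 (48.0% of TPM) and 48.5 to Trp53inp1-204 (26.2%). Trp53inp1-202 differs from the coding form mainly by an added exon 4 of 38 bases, which is shown in capitals between 20 bases of each neighbouring exon (chr4:11165428-11169729, plus strand, GRCm38). The tables do not give how many reads crossed that exon. The coding share, 62.9% ± 52.5 (SD, n = 2), spans most of the possible range.
Trp53inp1-202: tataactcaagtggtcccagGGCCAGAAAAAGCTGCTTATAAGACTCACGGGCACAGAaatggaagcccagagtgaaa

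For the remaining targets, Sesn2 has 1 transcript in the tables, and all Zmat3 counts went to 1 of its 4, the protein-coding Zmat3-203, in both libraries. By posterior mean values the share of Zmat3-203 was only 51.58% and 28.65%. Zmat3-201 then held 24.75% and 26.05%, and Zmat3-202 held 21.87% and 41.87%, both also protein-coding. The Zmat3 transcript in use is therefore not settled. The coding transcript Ccng1-201 held 92.2% and 100% of Ccng1 TPM. Aen was led by different processed transcripts, Aen-204 with 64.9% of TPM in replicate 1 and Aen-206 with 55.6% in replicate 2, the latter from 3 estimated counts. Its coding share was 35.1% and 32.0% of TPM and 19.0% and 56.6% of counts.

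**Figure D3:**
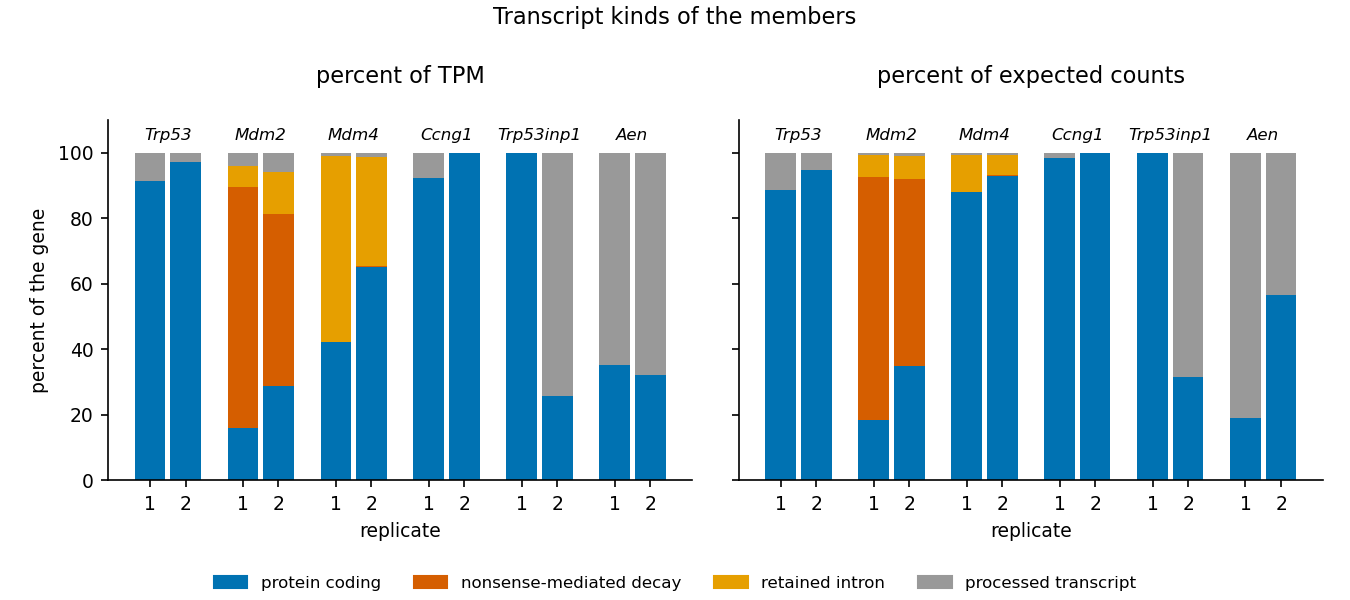
Percent of TPM (left) and of expected counts (right) on each annotated kind of transcript, by replicate, for the 6 members with expected counts on several transcripts. Mdm2 is mostly nonsense-mediated decay transcript on both scales, Mdm4 has a larger protein-coding share by counts than by TPM, and Trp53inp1 differs between the replicates.

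Between the libraries, 0 of 8 members differed by more than 2-fold in log2(TPM + 1) centred on its median, where 0.631% of 9820 genes with a mean of at least 20 counts did. That scale moves little for genes near or under 1 TPM. Eda2r and Phlda3 were under the count minimum, so 8 of 10 members entered. On expected counts scaled by edgeR's TMM, 1 of 8, Zmat3, was over 2-fold apart, where 18.1% of the 9820 genes were. This compares 2 libraries of 1 group, and no test applies.

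Trp53 differed more by counts than the other members with over 100 counts. Its 403 and 183 counts gave a ratio of replicate 1 to replicate 2 of 1.90-fold after TMM scaling, a log2 ratio of 0.93 (95% counting interval 0.67 to 1.19). Mdm4 had a log2 count ratio of 0.01 (-0.11 to 0.12), Mdm2 0.08 (-0.09 to 0.24), Ccng1 -0.02 (-0.24 to 0.21), Sesn2 0.00 (-0.38 to 0.38) and Trp53inp1 0.16 (-0.01 to 0.33). These 5 intervals include 0. Zmat3, at 1.24 (0.64 to 1.89), and Aen, at 0.81 (0.19 to 1.46), leaned to replicate 1 as Trp53 did, from 85 against 31 and 67 against 33 counts. The rescaled summed level of granulocyte and monocyte markers was lower in replicate 1 (23275 against 27158 TPM) and that of erythroid markers was close (112376 against 110733). The part of either in these ratios was not tested.

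Of the 8 members compared, Aen, Mdm2 and Trp53inp1 changed direction between TMM-scaled counts and deposited TPM. The deposited TPM ratio is not scaled between the libraries, where 1 TPM equals 43.1 and 37.0 rescaled TPM. On the rescaled scale Mdm2 stood at 87.2 and 84.4 TPM, higher in replicate 1 as by counts. Trp53inp1, at 41.4 and 43.3, and Aen, at 6.47 and 7.77, stayed lower in replicate 1. Mdm2 and Trp53inp1 had log2 ratios of 0.08 and 0.16 by counts, with intervals that include 0, and of -0.17 and -0.29 by deposited TPM. Aen was higher in replicate 1 by counts, and by deposited TPM it was lower, with a log2 ratio of -0.49. The effective length of Aen was 3439 bases in replicate 1 and 1552 in replicate 2, because that length follows the transcripts to which the few reads were assigned. For Zmat3 the effective length was 7536 bases in replicate 1 and 7533 in replicate 2. Its log2 ratio of deposited TPM was 1.17, against 1.24 by counts. The deposited values, 0.09 and 0.04 TPM, are given to 2 decimals, so how close the ratios are cannot be told. On the rescaled scale Zmat3 stood at 3.88 and 1.48 TPM. Trp53 kept its direction on both scales, with a log2 ratio of TPM of 0.76.

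**Figure D4:**
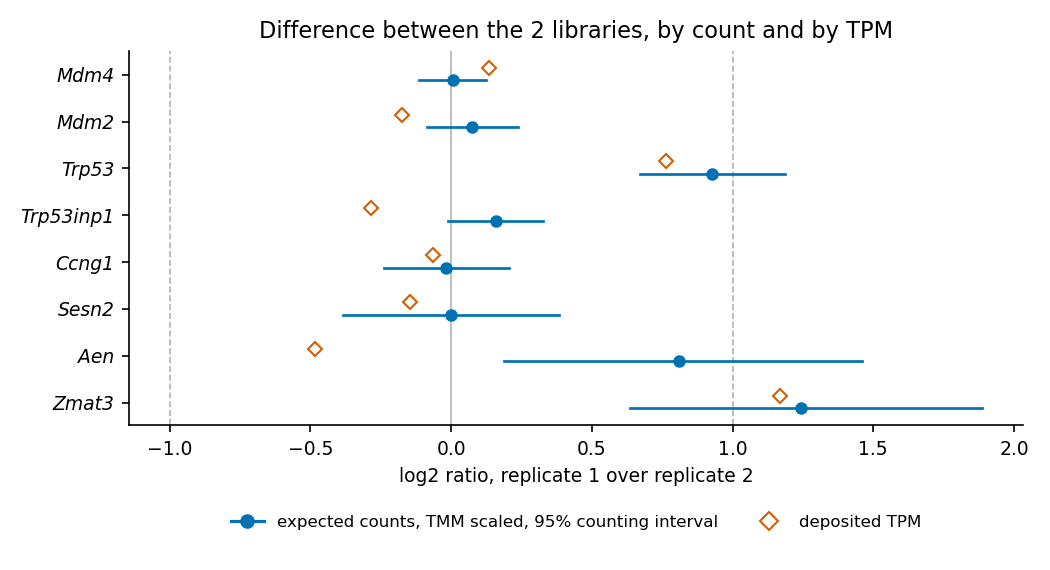
Log2 ratio of replicate 1 to replicate 2 for the 8 members with a mean of at least 20 counts, from TMM-scaled expected counts with 95% counting intervals (filled circles) and from deposited TPM (open diamonds); dashed lines mark 2-fold. Trp53 and Zmat3 lie to the right on both scales, and Aen, Mdm2 and Trp53inp1 lie on opposite sides of 0. The deposited TPM is not rescaled to nuclear protein-coding genes, unlike the counts, which are scaled between the libraries.

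Genes that act on p53 and genes that p53 acts on were both represented, at different levels. Of 38 regulator genes, 21 reached 1 TPM in both libraries, with a median of 1.94 and 2.20 TPM. Ribosomal and nucleolar genes gave 9 of these 21, with a median of 8.83 and 11.2 TPM. The median was 1.085 and 1.72 for stability genes and cofactors, and 0.745 and 0.840 for sensors and kinases. Of 42 other p53 target genes, 10 reached 1 TPM, with a median of 0.145 and 0.140. Each count of regulators and targets is to be read beside the 12.6% of nuclear protein-coding genes at 1 TPM. Among 10 sensors and kinases, 3 reached 1 TPM: Hipk2, a kinase that phosphorylates p53 (7.13 ± 0.651 TPM, SD, n = 2), the DNA damage mediator gene Mdc1 (3.19 ± 0.0141) and the checkpoint kinase gene Chek2 (1.46 ± 0.0849). The adaptor gene Trp53bp1 stood at 1.05 ± 0.311, with replicate 1 under 1 TPM. The damage-sensing kinase genes Prkdc and Atm were lowest, at 0.285 ± 0.0212 and 0.115 ± 0.0354.

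Of 18 genes for p53 stability and cofactors, 9 reached 1 TPM. The highest was Usp7, whose deubiquitinase acts on both Mdm2 and p53, at 20.9 ± 0.552 TPM (21.34 in replicate 1 and 20.56 in replicate 2). Pml followed at 6.11 ± 0.170, the histone H4 methyltransferase gene Kmt5a at 6.01 ± 1.68 and Trim28 at 5.49 ± 1.195. Usp2 had 8 and 2 counts, and Cdkn2a, whose Arf product inhibits Mdm2, had 0 counts in both libraries. Of 10 genes of the ribosomal stress arm, 9 reached 1 TPM. These encode ribosomal and nucleolar proteins, some of which bind Mdm2 when ribosome assembly fails, and they are abundant in any growing cell. Rpl26 stood at 24.4 ± 4.21 TPM, Rps19, a gene mutated in Diamond-Blackfan anaemia in humans, at 21.3 ± 1.88, Rps14 at 18.2 ± 6.61 and Rps7 at 11.6 ± 2.25. Ncl (4.15 ± 0.0707) and Gnl3 (0.865 ± 0.163) were lowest. Reads of ribosomal protein genes can be shared with their pseudogenes, so these levels are less certain.

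The other targets are given by role, each count to be read beside the 12.6% of nuclear protein-coding genes at 1 TPM. Of 10 cell cycle targets 5 reached it: the antiproliferative gene Btg2 at 4.36 ± 0.0495, Ckap2 at 3.86 ± 0.141, Gadd45a, a stress sensor that binds cell cycle proteins, at 3.10 ± 0.106, Gtse1 at 1.38 ± 0.106 and Psrc1. Ckap2, Gtse1 and Psrc1 encode mitotic proteins that dividing cells make in any case. Plk3 and Rprm had 0 counts. The CDK inhibitor gene Cdkn1a, the best known arrest target, had 5 and 12 counts (0.02 and 0.07 TPM); it is named outside the naming rule, with its value seen. Of 12 apoptosis targets 2 reached 1 TPM, the tetraspanin gene Cd82 (8.78 ± 0.156) and Siva1 (1.55 ± 0.424), followed by the apoptosome gene Apaf1 (0.990 ± 0.467) and Pidd1 (0.885 ± 0.0919). Fas and Perp had 0 counts.

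None of 8 DNA repair and nucleotide targets reached 1 TPM, although 7 had at least 10 counts in both libraries, as did 42.9% of nuclear protein-coding genes. The translesion polymerase gene Polh stood highest, at 0.855 ± 0.106, followed by Triap1 (0.505 ± 0.0636), Polk (0.315 ± 0.163) and the damage-binding protein gene Ddb2 (0.215 ± 0.00707). Xpc (0.110 ± 0.0283) and Dcxr (0.0600 ± 0.0566) were lowest. Of 12 metabolism and stress targets 3 reached 1 TPM. The glutathione peroxidase gene Gpx1, an abundant antioxidant of red cells, stood at 111 ± 14.9 TPM, the AMPK subunit gene Prkab1 at 4.25 ± 0.997 and Ptp4a3 at 3.22 ± 0.127. The ferredoxin reductase gene Fdxr followed at 0.245 ± 0.304. Sco2 and Gdf15 had 0 counts.

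**Figure D5:**
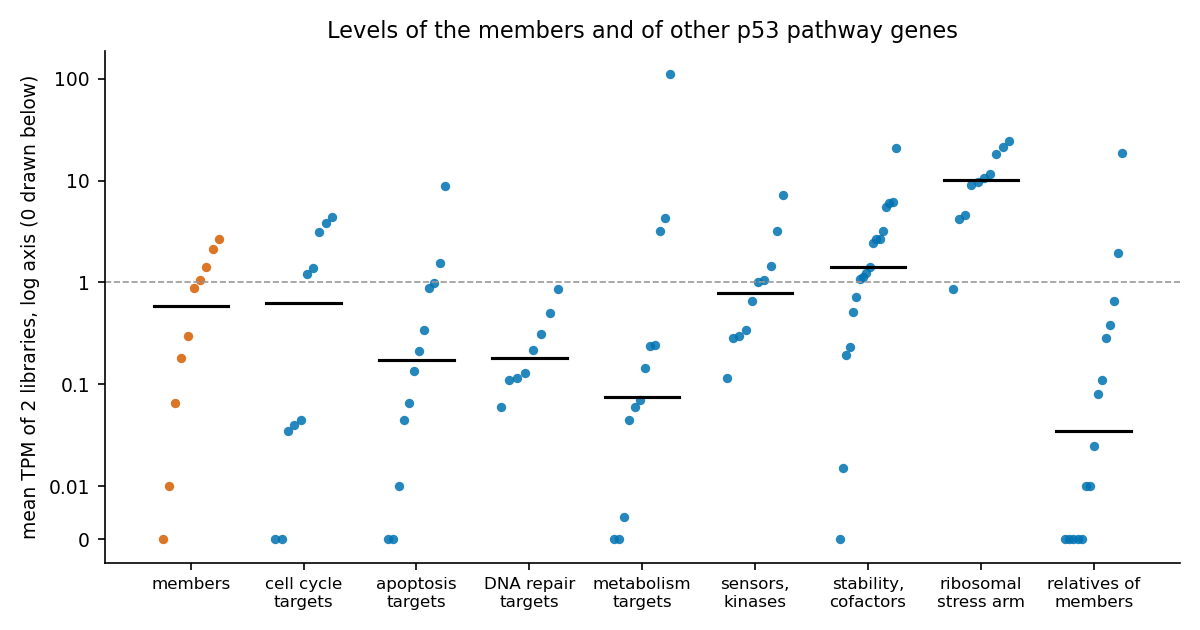
Mean TPM of 2 libraries (log axis, 0 drawn below) for each gene of the members (orange) and of 8 lists of other pathway genes (blue); black bars are list medians, averaged over the libraries, and the dashed line is 1 TPM. The ribosomal stress arm has the highest median, and the medians of the apoptosis, DNA repair and metabolism targets lie under that of the members. The members include Trp53, Mdm2 and Mdm4, the only members at 1 TPM in both libraries. Aen, the middle gene of the member targets alone, has a mean of 0.18 TPM. The list medians are 0.17 for apoptosis, 0.18 for DNA repair, 0.075 for metabolism and 0.635 for cell cycle targets.

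Of 15 relatives of the members, 2 reached 1 TPM, a share near the 12.6% of nuclear protein-coding genes that did. The p53 relatives Trp63 and Trp73 had 0 counts in both libraries, as did Phlda2, Zmat4 and Edar. Among the sestrins, Sesn1 stood at 1.95 ± 0.226 TPM (SD, n = 2), 7.54-fold above Sesn2 in replicate 1 (95% counting interval 6.15 to 9.08) and 5.77-fold in replicate 2 (4.63 to 7.11). The cyclin G relatives lay closer: Ccng1 was 1.05-fold above Ccng2 in replicate 1 (0.894 to 1.24) and 1.88-fold in replicate 2 (1.51 to 2.31). Trp53inp1 was 3.84-fold (3.20 to 4.72) and 3.66-fold (2.99 to 4.46) above Trp53inp2. Isg20, an interferon-stimulated exonuclease gene of the same family as Aen, stood at 18.5 ± 4.18 TPM, 103-fold (82.3 to 136) and 102-fold (73.8 to 152) above Aen. By counts, with no length scaling, the folds were 23.2 and 49.3, since the effective length of Aen differed between the libraries. Isg20l2, of the same family, stood at 0.385 ± 0.0212 TPM. Eda, the ectodysplasin gene, had 0 and 8 counts.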

How the data were processed

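For each of 2 total RNA libraries a table by gene and a table by transcript were used. Each library was quantified separately from transcriptome alignments on mm10 with GENCODE M4, per the deposited description of the files. Not given in the sources used here are the tools for alignment and quantification with their versions, and any use of strand, so sense and antisense reads cannot be told apart. The deposited expected counts are, per the file headers, estimated reads that can be fractions. The deposited TPM, given to 2 decimals, sums to 1000000 over a table. FPKM is the authors' value per length and depth. The isoform percent is, per the file headers, the percent of the gene's deposited TPM that a transcript holds. The deposited posterior standard deviations and interval bounds were treated as a score. Entries that name no gene held 0 and 8 counts (0% and 7.23e-06%).

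Names, transcript kinds and GRCm38 coordinates came from GENCODE M21 by identifier without version: 42462 of 43346 Ensembl genes matched, as did all 132 listed genes. Of the members' 52 transcripts, 48 had the same length in M21. Genes were called detected at 1 TPM in both libraries. Intervals are exact at 95%, Poisson for a level and Clopper-Pearson for a ratio, and cover counting error only; a count of 0 was set at a floor of 3. Between libraries, log2(TPM + 1) was centred on its median (a shift of -0.05 removed); edgeR's TMM and DESeq2's size factors were computed on expected counts rounded to whole numbers. Statistics were tested on simulated data. The members and lists were chosen with earlier results of these data known. Of each list the 4 highest and 2 lowest genes are named. Psrc1, Trp63, Trp73, Phlda2, Trp53inp2, Eda and the genes so marked in the text are named outside that rule, with their values seen. DESeq2 1.42.0 and edgeR 4.0.16 ran in R 4.3.3, and scipy 1.17.1, pandas 2.3.3, matplotlib 3.10.9 and numpy 2.4.6 in Python 3.11.15.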

Additional observations from a re-analysis of the deposited data

How the results depend on the processing

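Of 94 values recomputed under alternatives, 72 kept their place, 21 moved and 1 reversed. This tally is not a measure of stability. It includes the settings that leave out a replicate, treated below. It also includes ratios between genes of the same library, which rescaled TPM and FPKM cannot change beyond rounding. With TPM rescaled to nuclear protein-coding genes, 8 members, 26 other targets and 36 regulators were detected, where 44.6% of nuclear protein-coding genes were. The members' median was then 23.5. With at least 10 expected counts, 8, 24 and 36 were detected, where 42.9% of those genes were. With a minimum of 0.5 TPM, 5 members were. The share of all genes was not computed for that minimum or for the settings that leave out a replicate. The members' median was 0.545 as FPKM. On protein-coding transcripts alone it was 0.305, the log2 ratio of Mdm2 to Trp53 reversed to -1.49, Mdm4 to Trp53 was 0.11, Mdm2 to Mdm4 was -1.59 and 4 neighbouring pairs stood apart, an alternative for the order added after seeing the data. On expected counts with no length scaling, Mdm4 to Trp53 was 2.09 and Mdm2 to Mdm4 was -0.87; 1 member, Zmat3, was over 2-fold apart with TMM scaling and 1 with DESeq2 size factors, against 0. By expected counts the coding share was 90.4% for Mdm4 and 37.8% for Aen; from posterior mean values it was 97.4% for Zmat3 and 36.0% for Aen. The cause of these changes was not tested. Leaving out either replicate leaves the value of the other, which with 2 libraries cannot pass their SD and says nothing on stability: 3 to 4 members, 10 to 11 other targets and 21 to 26 regulators were then detected, and the log2 ratio was 0.17 to 1.10 for Mdm2 to Trp53, 0.64 to 1.27 for Mdm4 to Trp53 and -0.47 to -0.16 for Mdm2 to Mdm4. No paired analysis was possible because there is only 1 group. Depth limits the lowest members: Aen, Zmat3, Eda2r and Phlda3 had at most 85 counts in a library.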

Other observations

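After TMM scaling of counts, 3 of the 12 other apoptosis targets were higher in replicate 1 and 7 in replicate 2, and 4 and 6 of the 12 metabolism and stress targets were; 2 of each list had no counts. Of 10 cell cycle targets 5 were higher in replicate 1 and 3 in replicate 2, and of 8 DNA repair targets 5 and 3. The share of all genes by direction was not computed, but their median log2 ratio after TMM scaling was 0.003. Some genes counted here had very few reads, such as Tnfrsf10b with 1 and 7 counts and Tigar with 2 and 4. The splits are therefore not read as a result on these targets. The genes that follow were picked out after their values were seen, for wide differences at low counts. Pmaip1, which encodes the BH3-only protein Noxa, had 1 and 23 counts in replicates 1 and 2. Bbc3, the gene of the BH3-only protein Puma, had 3 and 20, and the ferredoxin reductase gene Fdxr 7 and 33. Gls2, a glutaminase gene, went the other way with 32 and 0 counts. The apoptosis effector gene Bax had 23 and 34. Counts this low vary widely between libraries, and no test applies.

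Wrap53, also picked out after its values were seen, lies head to head with Trp53 on the opposite strand, with 103 bases between the annotated genes. It had 64 counts in replicate 1 and 135 in replicate 2, opposite in direction to the 403 and 183 counts of Trp53. Of the annotated genes that overlap a member, Gm29257 within Mdm4 had 0 and 1.04 counts and Gm12981 within Sesn2 had 3 and 0.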
